A study of Mus musculus and Homo sapiens with 8 samples.

Results

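The genes described here encode the extracellular matrix, the mesh of collagens, laminins, proteoglycans and glycoproteins around cells, and the metalloproteinases that cut it with their inhibitors. They were chosen by name from the mouse table: collagen chains (Col), laminin chains (Lama, Lamb and Lamc), matrix metalloproteinases (Mmp), tissue inhibitors of metalloproteinases (Timp), fibulins (Fbln), and Fn1, Lum, Dcn, Bgn, Fmod, Ogn, Fbn1, Eln, Sparc and Postn. A gene was kept if its detection p-value, the share of negative control beads that were as bright, was under 0.01 on at least 1 of the 5 mouse arrays. Of 30854 rows in that file, 92 bore such a name, and 52 of these were kept, among 13089 rows that met the same detection threshold. Just inside the threshold lay Mmp11 and Fn1, with lowest detection p-values of 0.00748 and 0.00744, and just outside it lay Fbn1 and Col6a3, with 0.0101 and 0.0111. The same names in the human table gave 23 genes detected on at least 1 of 3 arrays.

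RNA from thymus and from the human lung carcinoma line H1299, which has no p53 of its own, was measured on Illumina bead arrays. The mice, all CD-1, were 2.5 weeks of age. Thymus gave 2 arrays labelled TRAF6 null and irradiated, 2 arrays of irradiated wild type and 1 array of unirradiated wild type, where irradiated mice had received 15 Gy and were treated for 10 h. There was no unirradiated TRAF6 null array, so the response to radiation within that genotype was not measured. H1299 cells had been transfected with p53 K24R, in which a lysine is replaced by arginine, with p53 WT or with empty vector, 1 array each. The labels do not say whether both arrays of a mouse group came from separate animals, and the p-values therefore reflect spread between arrays, some of which may be technical. The labels also do not say how the TRAF6 null allele was made, or whether the thymi were pooled.

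Collagen IV and laminins form the sheet-like basement membranes under epithelia and around vessels, while collagens III, V and VI, decorin and lumican lie in the interstitial matrix made mainly by fibroblasts. Metalloproteinases are secreted or membrane-bound zinc enzymes that degrade these proteins, and the Timp proteins bind and block them. In the thymus this matrix carries the epithelial network, the capsule and the vessels along which developing T cells move.

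Several of the metalloproteinases lie side by side on chromosome 9. Mmp3, Mmp10, Mmp12 and Mmp13, 4 of the 12 metalloproteinases among the 52 genes, belong to that cluster, and Mmp12 and Mmp13 are neighbours in the RefSeq annotation of assembly GRCm38.p6. The 120 bases before the RefSeq transcription start of these genes are shown because each holds the letters TGANTCA, the consensus that AP-1 factors (Fos and Jun dimers) recognise. The match is in capitals, and all 4 stretches are on the plus strand, at chr9:7445702-7445821 for Mmp3, chr9:7502222-7502341 for Mmp10, chr9:7347254-7347373 for Mmp12 and chr9:7272394-7272513 for Mmp13.
Mmp3: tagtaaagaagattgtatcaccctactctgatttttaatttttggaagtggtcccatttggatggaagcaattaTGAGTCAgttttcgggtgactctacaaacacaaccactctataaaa
Mmp10: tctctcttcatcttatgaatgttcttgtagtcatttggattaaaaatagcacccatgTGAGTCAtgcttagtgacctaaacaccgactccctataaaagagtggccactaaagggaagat
Mmp12: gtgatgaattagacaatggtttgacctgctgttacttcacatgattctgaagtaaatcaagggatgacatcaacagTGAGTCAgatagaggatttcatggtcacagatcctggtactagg
Mmp13: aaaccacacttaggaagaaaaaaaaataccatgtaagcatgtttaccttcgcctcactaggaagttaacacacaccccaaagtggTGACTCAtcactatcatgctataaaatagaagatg
The first base of the match lies 46 bases before the start in Mmp3, 63 in Mmp10, 44 in Mmp12 and 35 in Mmp13. Mmp12 has another annotated start, whose 250 bases upstream hold no match. Searched on both strands over the 250 bases upstream, TGANTCA was present in 2217 of 32851 annotated mouse promoters, or 6.75%. The promoter table held 39 of the 52 genes with 45 promoters, 5 of which matched: these 4 and Col6a1. Among the 9 metalloproteinases in the table, Mmp11, Mmp14, Mmp15, Mmp23 and Mmp25 had no match in that window. The TATAAA box was found in 7 of the 45 promoters, against 12.4% of all promoters. They were those of Mmp3, Mmp10, Mmp13, Col3a1, Col11a2, Col17a1 and Ogn. A match describes the letters and does not show binding.

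The mouse arrays had 9493 to 11177 rows detected, with typical bead standard errors of 3.23% to 3.48% of the signal, and the number of arrays limits the precision. Across tested rows the pair labelled TRAF6 null correlated at 0.971, the irradiated wild-type pair at 0.988 and arrays of different groups at 0.865 to 0.886. Traf6 itself had signals of 537 and 449 in the pair labelled TRAF6 null, 327 and 315 in irradiated wild type and 372 in unirradiated wild type, a 2.18-fold higher signal in the first pair (limma adjusted p = 0.0122). The table does not say where the probes of that row lie, so Traf6 does not check the labels, and every direction below rests on them. Of 15 thymocyte marker rows, for 14 genes, 13 were detected on at least 1 array. The 14 rows above background on at least 1 array had summed signals of 29620 and 23870 in the pair labelled TRAF6 null, 31369 and 24295 in irradiated wild type and 78190 in unirradiated wild type. In bulk RNA fewer cells of a type and less RNA per cell cannot be told apart.

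Most tested matrix genes read higher on both arrays of irradiated wild-type thymus than on the 1 unirradiated array. Tests against that array take their spread from the irradiated pairs alone. Of the 52 genes, 44 were detected on at least 2 arrays and were tested with limma, a linear model across all 11563 tested rows, with Benjamini-Hochberg adjustment and a threshold of 0.05. Between irradiated wild type and unirradiated wild type 27 were higher and 1 lower, against 18.7% higher and 17.5% lower among all rows tested, and the median log2 difference was 1.58, against 0.05 over all rows. Between the pair labelled TRAF6 null and irradiated wild type 6 were higher and 16 lower, against 20.8% and 22.8% of all rows, with a median of -0.41 against -0.03. Between the pair labelled TRAF6 null and unirradiated wild type 20 were higher and 2 lower, against 13.6% and 15.1% of all rows, with a median of 1.10 against -0.03. These comparisons share arrays. Of the 44 genes 6 were detected on arrays of 1 group alone and so entered the test through it: Timp4 and Col6a1 through the pair labelled TRAF6 null, and Col2a1, Col8a1, Col27a1 and Mmp11 through irradiated wild type. The counts describe tested genes, not all 52. From the authors' processed matrix, whose scaling is not stated and which moved the median of all rows between the irradiated groups to -0.28, the same fit called 4 higher and 22 lower in that comparison. With the background inferred by neqc itself, 11 of the 22 calls between the irradiated groups remained, 15 of 28 in irradiated against unirradiated wild type and 6 of 22 in TRAF6 null against unirradiated wild type. Among the lost calls between the irradiated groups were Mmp9 (log2 difference -3.12, adjusted p = 0.0552) and Lamb3 (-1.11, adjusted p = 0.115). Lum (1.86, adjusted p = 0.0897), Mmp13 (-0.61, adjusted p = 0.116) and Col17a1 (-0.24, adjusted p = 0.0548) were lost as well. So were Col14a1, Col15a1, Col23a1, Eln, Lama5 and Timp4. That setting gave smaller differences for dim genes that stayed called, too, among them Mmp12 (-1.27, adjusted p = 0.0222), Mmp15 (-0.45, adjusted p = 0.022) and Mmp25 (-0.51, adjusted p = 0.0145). Without array 1 of irradiated wild type limma called 1 higher and 7 lower between the irradiated groups, 0 in irradiated against unirradiated wild type (26 higher and 1 lower at an unadjusted p under 0.05), and 4 higher between TRAF6 null and unirradiated wild type. Without array 2 it called 0 higher (6 at an unadjusted p under 0.05) and 2 lower, 0 (again 26 and 1 unadjusted), and 4 higher. Those fits take their spread from 1 pair, the one labelled TRAF6 null. Every called gene that was still tested kept its sign.

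**Figure D1:**
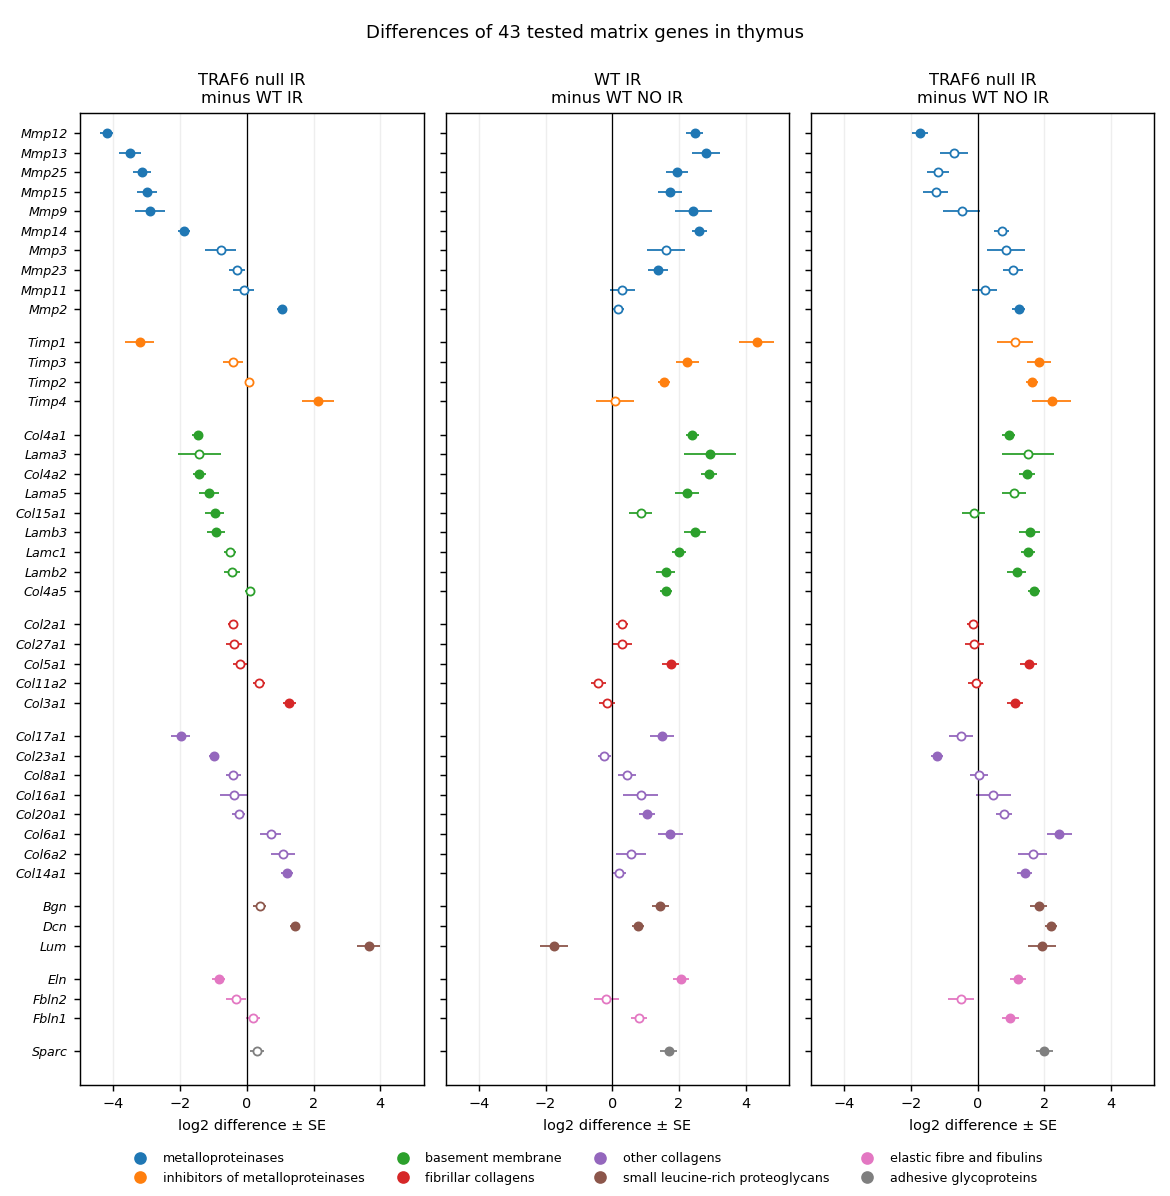
Log2 differences ± SE (x axis) of 43 tested matrix genes (rows, coloured by role) for the arrays labelled TRAF6 null minus irradiated wild type, irradiated minus unirradiated wild type, and TRAF6 null minus unirradiated wild type. Filled points passed limma's test at an adjusted p of 0.05, 21, 27 and 22 genes in the panels from left to right; the metalloproteinases at the top lie left of 0 in the first panel and right of it in the second, apart from Mmp2 in the first.

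Of 10 tested metalloproteinases, 6 were lower and 1 was higher in the pair labelled TRAF6 null than in irradiated wild type. The median log2 difference was -2.40. With dim genes at their bound it was -2.10, a median without Mmp11, whose bound gave no fold. In irradiated against unirradiated wild type 7 were higher and 0 lower by limma (8 and 0 at an unadjusted p under 0.05), with a median of 1.84. TRAF6 null against unirradiated wild type gave 1 higher and 1 lower. Over all tested rows the shares higher and lower in these comparisons were 20.8% and 22.8%, 18.7% and 17.5%, and 13.6% and 15.1%. Signals are given as deposited, as mean bead intensities that still include a background of about 101.5 to 104, and log2 differences as computed after background correction and normalisation. A gene counts as above background on an array if its signal exceeds the 99th percentile of the negative controls there, 131.3 to 141. Where no array of a group is above background, the fold is given as a bound ("at least") against the lowest value above background. Among the metalloproteinases called lower in the pair labelled TRAF6 null, Mmp12, Mmp13, Mmp15 and Mmp25 were above background on neither array of that pair. Each was detected on 3 of the 5 arrays and may have entered the test through wild-type arrays, where it read higher.

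Mmp12, the macrophage elastase, had signals of 118 and 114 in the pair labelled TRAF6 null, 803 and 625 in irradiated wild type and 189 in unirradiated wild type. Neither array labelled TRAF6 null was above background, while all 3 wild-type arrays were, the irradiated ones highest. Mmp12 was at least 10.2-fold lower in the pair labelled TRAF6 null than in irradiated wild type (log2 difference -4.20 ± 0.20 SE, adjusted p = 0.00195). It was 5.53-fold higher in irradiated than in unirradiated wild type (log2 difference 2.47 ± 0.25 SE, adjusted p = 0.0071). It was the 1 metalloproteinase that was lower than in unirradiated wild type as well, at least 1.84-fold (log2 difference -1.74 ± 0.25 SE, adjusted p = 0.0131), a call that was lost with the authors' matrix (adjusted p = 0.0534) and with neqc's own background (adjusted p = 0.598). Mmp13, a collagenase that cleaves fibrillar collagens, read 109 and 109 in the pair labelled TRAF6 null, 338 and 518 in irradiated wild type and 128 in unirradiated wild type. Its signal was above background in irradiated wild type alone. Mmp13 was at least 5.15-fold lower in the pair labelled TRAF6 null (log2 difference -3.50 ± 0.34 SE, adjusted p = 0.00402). It was at least 6.09-fold higher in irradiated than in unirradiated wild type (log2 difference 2.80 ± 0.42 SE, adjusted p = 0.0114). Both calls were lost with neqc's own background (adjusted p = 0.116 and 0.191), where the first difference was -0.61.

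Other genes of that cluster were dimmer. Mmp3, a stromelysin that cuts proteoglycans and activates other metalloproteinases, had signals of 116 and 164 in the pair labelled TRAF6 null, 202 and 182 in irradiated wild type and 114 in unirradiated wild type, and passed in no comparison (log2 difference -0.78 ± 0.46 SE, adjusted p = 0.224 between the irradiated groups). The arrays labelled TRAF6 null differed from each other more than their mean did from wild type. Mmp10, its close relative, was above background on 1 array, the second of irradiated wild type, at 171, and was not tested.

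Mmp14, Mmp15 and Mmp25 are bound to the cell membrane. Mmp14, which sits at the cell surface, cleaves collagen and activates the precursor of Mmp2, had signals of 831 and 724 in the pair labelled TRAF6 null, 2735 and 2579 in irradiated wild type and 571 in unirradiated wild type. Irradiated wild type stood above the other arrays, and the groups did not overlap. Over all tested rows 77.2% did not overlap between the irradiated groups and 92.1% between irradiated and unirradiated wild type. Mmp14 was 3.7-fold lower in the pair labelled TRAF6 null (log2 difference -1.89 ± 0.18 SE, adjusted p = 0.00384) and 6.1-fold higher in irradiated than in unirradiated wild type (log2 difference 2.61 ± 0.22 SE, adjusted p = 0.00649). It did not pass between TRAF6 null and unirradiated wild type (log2 difference 0.72 ± 0.22 SE, adjusted p = 0.0681). Mmp15, another transmembrane member, read 122 and 105 in the pair labelled TRAF6 null, 355 and 374 in irradiated wild type and 158 in unirradiated wild type. Mmp25, which is anchored to the membrane by a lipid and is known from human neutrophils, read 105 and 126 in the pair labelled TRAF6 null, 394 and 395 in irradiated wild type and 155 in unirradiated wild type. Both were above background on every wild-type array and on neither array labelled TRAF6 null, at least 4.29-fold and 4.76-fold lower there than in irradiated wild type (adjusted p = 0.00408 and 0.0034). In irradiated against unirradiated wild type they were 3.34-fold and 3.86-fold higher (adjusted p = 0.0234 and 0.0147). The Mmp15 call there was lost with no detection filter (adjusted p = 0.0577).

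The gelatinases, which cut denatured collagen and collagen IV, went opposite ways between the irradiated groups. Mmp9 had signals of 378 and 339 in the pair labelled TRAF6 null, 1617 and 3362 in irradiated wild type and 544 in unirradiated wild type. The irradiated wild-type arrays were both the highest and the least alike of any tested matrix gene in that pair. Mmp9 was 7.52-fold lower in the pair labelled TRAF6 null (log2 difference -2.91 ± 0.46 SE, adjusted p = 0.00917). It was 5.41-fold higher in irradiated than in unirradiated wild type (log2 difference 2.44 ± 0.56 SE, adjusted p = 0.0288). The latter call was lost with no detection filter (adjusted p = 0.0801) and with neqc's own background (adjusted p = 0.0948). With neqc's own background the call between the irradiated groups was lost too (log2 difference -3.12, adjusted p = 0.0552). Mmp2 had signals of 2949.8 and 2876 in the pair labelled TRAF6 null, 1535 and 1375 in irradiated wild type and 1413 in unirradiated wild type. The 3 wild-type arrays lay close together, below both arrays labelled TRAF6 null. Mmp2 was 2.08-fold higher in the pair labelled TRAF6 null than in irradiated wild type (log2 difference 1.06 ± 0.15 SE, adjusted p = 0.00783) and 2.34-fold higher than in unirradiated wild type (log2 difference 1.23 ± 0.19 SE, adjusted p = 0.0147). It did not pass between irradiated and unirradiated wild type (log2 difference 0.17 ± 0.19 SE, adjusted p = 0.513). Mmp23, a membrane-linked member, was 2.57-fold higher in irradiated than in unirradiated wild type (adjusted p = 0.0269), and Mmp11 passed in no comparison.

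Markers of macrophages and neutrophils, which make several of these enzymes, were measured beside them. Of 10 tested macrophage marker rows 2 were higher and 0 lower by limma (4 and 0 at an unadjusted p under 0.05) in the pair labelled TRAF6 null than in irradiated wild type, beside 20.8% higher and 22.8% lower of all tested rows. Summed signals cover the rows above background on at least 1 array, 11 for macrophages and 8 for neutrophils. Macrophage markers summed to 17006 and 25143 in the pair labelled TRAF6 null, 14473 and 12891 in irradiated wild type and 5741 in unirradiated wild type. Neutrophil markers summed to 12900 and 18653 in the pair labelled TRAF6 null, 9654 and 8921 in irradiated wild type and 8509 in unirradiated wild type. Of 7 tested neutrophil rows, 5 were higher and 0 lower between the irradiated groups by limma and at an unadjusted p under 0.05. The part of these cells in the metalloproteinase signals was not tested.

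**Figure D2:**
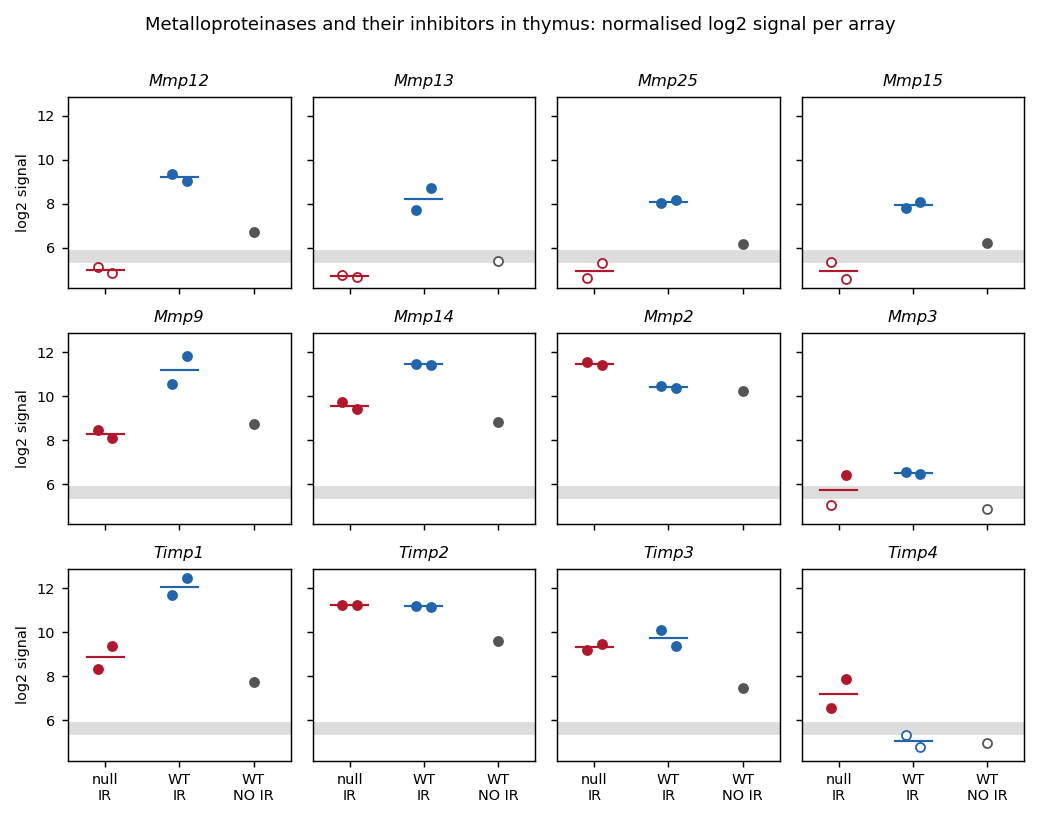
Normalised log2 signal (y axis) of 8 metalloproteinases and the 4 Timp genes on each mouse array, with arrays labelled TRAF6 null (red) left of irradiated wild type (blue) and unirradiated wild type (grey). Open points are not above background, the grey band spans the lowest values above background, and lines are means of 2 arrays; Mmp12, Mmp13, Mmp25 and Mmp15 lie at or under the band in the red pair, where Mmp2 and Timp4 are highest.

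The inhibitors did not move together. Timp1, which is secreted and also acts as a growth factor, had signals of 359 and 716 in the pair labelled TRAF6 null, 3162 and 5078 in irradiated wild type and 305 in unirradiated wild type. Both irradiated wild-type arrays were far above the other 3, and each irradiated pair differed within itself. Timp1 was 9.29-fold lower in the pair labelled TRAF6 null than in irradiated wild type (log2 difference -3.22 ± 0.44 SE, adjusted p = 0.00672). It was 20.1-fold higher in irradiated than in unirradiated wild type (log2 difference 4.33 ± 0.54 SE, adjusted p = 0.00865). Its difference between TRAF6 null and unirradiated wild type did not pass (log2 difference 1.11 ± 0.54 SE, adjusted p = 0.182).

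Timp2, which inhibits and also helps to activate Mmp2 at the cell surface, had signals of 2427 and 2599 in the pair labelled TRAF6 null, 2386 and 2202 in irradiated wild type and 934 in unirradiated wild type. All 4 irradiated arrays lay close together above the unirradiated one. Timp2 was 3.11-fold higher in TRAF6 null (log2 difference 1.64 ± 0.18 SE, adjusted p = 0.00944) and 2.95-fold higher in irradiated wild type (log2 difference 1.56 ± 0.18 SE, adjusted p = 0.00805) than in unirradiated wild type. Between the irradiated groups the difference was 0.08 ± 0.15 SE (adjusted p = 0.693). Timp3, which stays bound to the matrix, read 587 and 753 in the pair labelled TRAF6 null, 1248 and 756 in irradiated wild type and 263 in unirradiated wild type. It was likewise higher than in unirradiated wild type in both, by 3.57-fold (adjusted p = 0.0231) and 4.77-fold (adjusted p = 0.0123), and the irradiated groups overlapped. Timp4 was detected, and above background, in the pair labelled TRAF6 null alone, and so entered the test only through the group where it is high. It read 161 and 300.5 there, 133 and 112 in irradiated wild type and 117 in unirradiated wild type. It was at least 3.52-fold higher than in irradiated wild type (log2 difference 2.14 ± 0.48 SE, adjusted p = 0.0221) and at least 3.01-fold higher than in unirradiated wild type (log2 difference 2.22 ± 0.58 SE, adjusted p = 0.0478). One array labelled TRAF6 null was well above the other. The call against irradiated wild type was lost in 3 settings: with no detection filter (adjusted p = 0.069), with the authors' matrix (adjusted p = 0.121) and with neqc's own background (adjusted p = 0.207, log2 difference 0.26). The call against unirradiated wild type was lost in 6 settings, with adjusted p from 0.0609 with median scaling to 0.316 with neqc's own background.

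Basement membrane chains were higher in irradiated than in unirradiated wild type almost throughout, and partly so in the pair labelled TRAF6 null. Of 10 tested, 9 were higher and 0 lower in irradiated against unirradiated wild type by limma and at an unadjusted p under 0.05, with a median log2 difference of 2.32, or 2.20 at the bounds. On the arrays labelled TRAF6 null 6 were lower and 0 higher (7 and 0 at an unadjusted p under 0.05) than in irradiated wild type, with a median of -1.05, while 6 were higher and 0 lower (8 and 0 unadjusted) than in unirradiated wild type, with a median of 1.49. Among all tested rows 18.7% were higher and 17.5% lower in irradiated against unirradiated wild type. The shares were 20.8% and 22.8% between the irradiated groups, and 13.6% and 15.1% between TRAF6 null and unirradiated wild type. Col15a1 did not pass in irradiated against unirradiated wild type (log2 difference 0.85 ± 0.35 SE, adjusted p = 0.112).

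The chains of collagen IV, whose trimers form the network of nearly all basement membranes, are encoded by neighbouring genes and changed together. Col4a1 had signals of 1599 and 1641 in the pair labelled TRAF6 null, 3994 and 4281 in irradiated wild type and 1002 in unirradiated wild type. Col4a2 had 672 and 915 in the pair labelled TRAF6 null, 2088 and 2034 in irradiated wild type and 368 in unirradiated wild type. For both genes the arrays labelled TRAF6 null lay between the other groups, with no overlap. Non-overlap held for 77.2% of all tested rows between the irradiated groups and 84.2% between TRAF6 null and unirradiated wild type. Col4a1 was 2.78-fold lower in the pair labelled TRAF6 null than in irradiated wild type (log2 difference -1.48 ± 0.15 SE, adjusted p = 0.00444) and Col4a2 2.68-fold lower (log2 difference -1.42 ± 0.19 SE, adjusted p = 0.00621). In irradiated against unirradiated wild type they were 5.28-fold (log2 difference 2.40 ± 0.19 SE, adjusted p = 0.00599) and 7.47-fold higher (log2 difference 2.90 ± 0.23 SE, adjusted p = 0.00599). Against unirradiated wild type the TRAF6 null arrays were 1.9-fold and 2.78-fold higher (adjusted p = 0.0264 and 0.0147). The Col4a2 call there was lost with neqc's own background (adjusted p = 0.0663). Col4a5, a chain of more restricted membranes, was at least 2.72-fold higher in the pair labelled TRAF6 null and at least 2.55-fold higher in irradiated wild type than in unirradiated wild type (adjusted p = 0.00943 and 0.00802), and differed by 0.09 ± 0.15 SE between the irradiated groups.

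Lama3 and Lamb3 encode chains of the laminin that anchors epithelial cells to the basement membrane. Lamb3 read 1046 and 1684 in the pair labelled TRAF6 null, 2276 and 2587 in irradiated wild type and 560 in unirradiated wild type. It was 1.89-fold lower in the pair labelled TRAF6 null (log2 difference -0.92 ± 0.26 SE, adjusted p = 0.0431). That difference did not pass with median scaling (adjusted p = 0.0548), with no detection filter (adjusted p = 0.0956) or with neqc's own background (adjusted p = 0.115). Lamb3 was 5.56-fold higher in irradiated than in unirradiated wild type (log2 difference 2.48 ± 0.32 SE, adjusted p = 0.00913). Lama3 read 449.8 and 1707 in the pair labelled TRAF6 null, 2348 and 2132 in irradiated wild type and 394 in unirradiated wild type. One array labelled TRAF6 null lay near the unirradiated array and the other nearer irradiated wild type, the widest gap of that pair among the tested matrix genes, 1.94 on the log2 scale. Lama3 was 7.6-fold higher in irradiated than in unirradiated wild type (log2 difference 2.93 ± 0.78 SE, adjusted p = 0.042). This call was lost with no detection filter (adjusted p = 0.115) and with neqc's own background (adjusted p = 0.158). Lama3 did not pass between the irradiated groups (log2 difference -1.43 ± 0.64 SE, adjusted p = 0.13).

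Col17a1, a collagen that spans the membrane of basal epithelial cells and binds this laminin in hemidesmosomes, had signals of 115 and 135 in the pair labelled TRAF6 null, 255 and 289.6 in irradiated wild type and 142 in unirradiated wild type. It was not above background in the pair labelled TRAF6 null, at least 2.8-fold lower than in irradiated wild type (log2 difference -1.98 ± 0.29 SE, adjusted p = 0.00787). It was 2.81-fold higher in irradiated than in unirradiated wild type (log2 difference 1.49 ± 0.35 SE, adjusted p = 0.0315). The latter call was lost with no detection filter (adjusted p = 0.0748) and with neqc's own background (adjusted p = 0.1). With neqc's own background the call between the irradiated groups was lost too (log2 difference -0.24, adjusted p = 0.0548). Itgb4, the integrin chain of hemidesmosomes, which binds the same laminin, read 463 and 596 in the pair labelled TRAF6 null, 3674 and 4098 in irradiated wild type and 439 in unirradiated wild type (log2 difference -3.09 ± 0.19 SE, adjusted p = 0.00243 between the irradiated groups). Markers of medullary epithelium moved the same way: all 8 tested rows of 7 genes were lower in the pair labelled TRAF6 null than in irradiated wild type and 7 were higher in irradiated than in unirradiated wild type. Over all tested rows 22.8% were lower in the first comparison and 18.7% higher in the second. The 8 marker rows summed to 3236 and 7845 in the pair labelled TRAF6 null, 22792 and 22686 in irradiated wild type and 8218 in unirradiated wild type. The marker Aire was not above background in the pair labelled TRAF6 null. Of 5 tested rows of cortical epithelium, 2 were lower and 0 higher between the irradiated groups, beside 22.8% and 20.8% of all tested rows. The 2 were Krt8 (log2 difference -1.25, adjusted p = 0.00529) and Krt18 (-0.91, adjusted p = 0.0268), while Ccl25, Prss16 and Psmb11 did not pass. In irradiated against unirradiated wild type 3 cortical rows were higher and 1 lower, beside 18.7% and 17.5%. The part of epithelial cells in the laminin signals was not tested.

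The other laminin chains are more widely distributed. Lamc1, the chain shared by most laminins, had signals of 540.5 and 574 in the pair labelled TRAF6 null, 973 and 764 in irradiated wild type and 271 in unirradiated wild type. It did not pass between the irradiated groups (log2 difference -0.50 ± 0.17 SE, adjusted p = 0.0727) and was 4.01-fold higher in irradiated than in unirradiated wild type (adjusted p = 0.00765). Lamb2 passed in neither direction between the irradiated groups (log2 difference -0.44 ± 0.23 SE, adjusted p = 0.187). Lama5, found under epithelia and vessels, was 2.21-fold lower in the pair labelled TRAF6 null than in irradiated wild type (log2 difference -1.14 ± 0.29 SE, adjusted p = 0.0324). It was at least 2.71-fold higher in irradiated than in unirradiated wild type (log2 difference 2.24 ± 0.36 SE, adjusted p = 0.0128). Col15a1, a collagen of vessel and muscle basement membranes, was 1.95-fold lower in the pair labelled TRAF6 null than in irradiated wild type (log2 difference -0.97 ± 0.28 SE, adjusted p = 0.0458). Col18a1, the precursor of endostatin, had signals of 585 and 551 in the pair labelled TRAF6 null, 1055 and 1066 in irradiated wild type and 269.8 in unirradiated wild type. Its averaged detection p-value kept it out of the test.

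Smooth muscle and pericyte markers also stood lower in the pair labelled TRAF6 null: 4 of 4 tested rows were lower than in irradiated wild type and 3 were higher in irradiated than in unirradiated wild type. Over all tested rows 22.8% were lower in the first comparison and 18.7% higher in the second. Sums cover the 6 rows of this list above background on at least 1 array. They were 2926 and 3578 in the pair labelled TRAF6 null, 9547 and 8744 in irradiated wild type and 1664 in unirradiated wild type. Of 10 endothelial marker rows 1 was higher and 3 were lower between the irradiated groups, beside 20.8% and 22.8% of all tested rows. The part of these cells in the collagen IV and laminin signals was not tested.

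**Figure D3:**
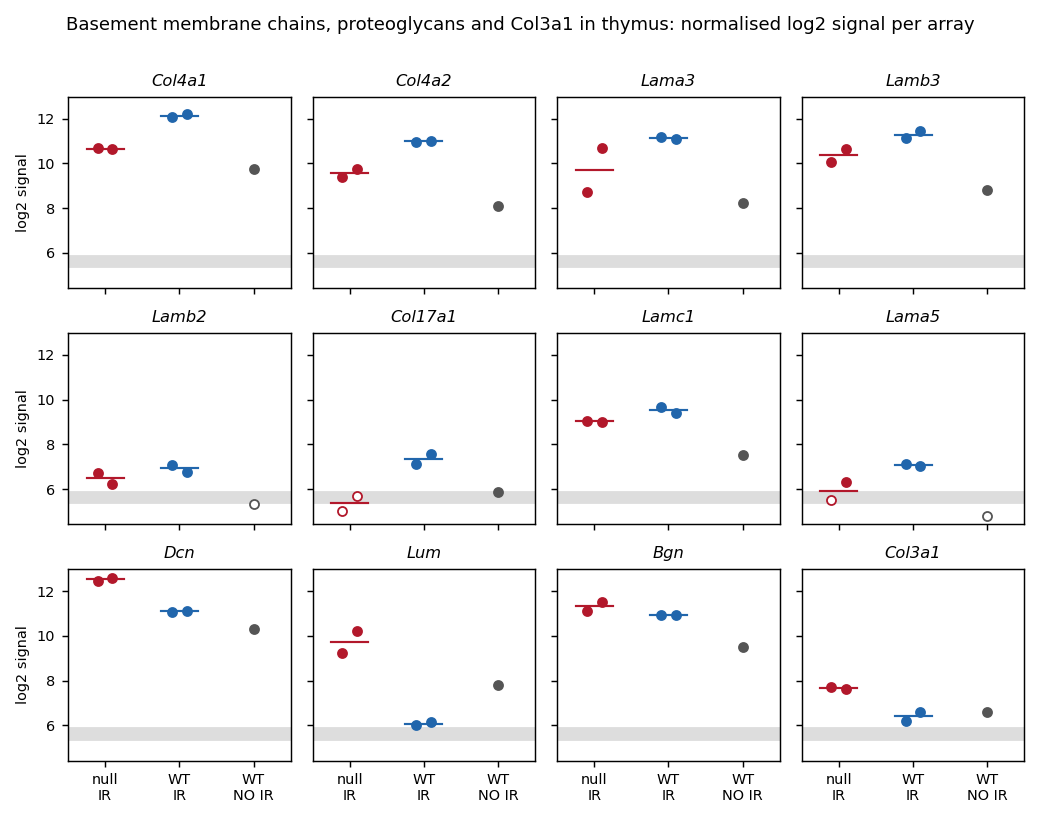
Normalised log2 signal (y axis) of basement membrane chains, Col17a1, 3 proteoglycans and Col3a1 on each mouse array, with arrays labelled TRAF6 null (red) left of irradiated wild type (blue) and unirradiated wild type (grey); open points are not above background and the grey band spans the lowest values above it. Col4a1, Col4a2 and the laminin chains drawn have their highest means in irradiated wild type, whereas Dcn, Lum and Col3a1 are highest in the red pair.

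Small leucine-rich proteoglycans bind collagen fibrils and set their width and spacing. Of 3 tested, 2 were higher and 0 lower in the pair labelled TRAF6 null than in irradiated wild type, and all 3 were higher than in unirradiated wild type (no further gene at an unadjusted p under 0.05 in either). Over all tested rows 20.8% were higher and 22.8% lower in the first comparison, and 13.6% and 15.1% in the second. Dcn, decorin, had signals of 5659.7 and 6858 in the pair labelled TRAF6 null, 2202 and 2145 in irradiated wild type and 1498 in unirradiated wild type. The groups did not overlap, and the arrays labelled TRAF6 null were the highest. Dcn was 2.71-fold higher in the pair labelled TRAF6 null than in irradiated wild type (log2 difference 1.44 ± 0.15 SE, adjusted p = 0.00449), 1.7-fold higher in irradiated than in unirradiated wild type (log2 difference 0.77 ± 0.19 SE, adjusted p = 0.0337, 0.0876 with median scaling). It was 4.61-fold higher in the pair labelled TRAF6 null than in unirradiated wild type (log2 difference 2.21 ± 0.19 SE, adjusted p = 0.00749). Lum, lumican, its neighbour on chromosome 10, read 617 and 1237 in the pair labelled TRAF6 null, 163 and 164 in irradiated wild type and 313 in unirradiated wild type. The irradiated wild-type arrays were the lowest and the arrays labelled TRAF6 null the highest, which differed from each other.

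Lum was 12.6-fold higher in the pair labelled TRAF6 null than in irradiated wild type (log2 difference 3.66 ± 0.34 SE, adjusted p = 0.00374). With neqc's own background this call was lost (log2 difference 1.86, adjusted p = 0.0897). Lum was the 1 tested matrix gene that was lower in irradiated than in unirradiated wild type, by 3.34-fold (log2 difference -1.74 ± 0.42 SE, adjusted p = 0.0327). That call was lost without background correction (adjusted p = 0.0948), with neqc's own background (adjusted p = 0.746) and with the authors' matrix (adjusted p = 0.211). Against unirradiated wild type it was 3.79-fold higher in the pair labelled TRAF6 null (log2 difference 1.92 ± 0.42 SE, adjusted p = 0.0309). That difference did not pass with the authors' matrix (adjusted p = 0.0607), with no detection filter (adjusted p = 0.0765) or with neqc's own background (adjusted p = 0.204). Bgn, biglycan, had signals of 2126 and 3215 in the pair labelled TRAF6 null, 2047 and 1906 in irradiated wild type and 853 in unirradiated wild type. It was 3.56-fold and 2.72-fold higher in the irradiated groups than in unirradiated wild type (adjusted p = 0.0122 and 0.0147) and did not pass between them (log2 difference 0.39 ± 0.20 SE, adjusted p = 0.18). Ogn, osteoglycin, which was not tested, read 268 and 344 in the pair labelled TRAF6 null, 142 and 148 in irradiated wild type and 172 in unirradiated wild type, ordered as for Lum.

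Collagens of the interstitial matrix did not move alike. Col3a1, the main chain of reticular fibres, and Col14a1, which coats fibril surfaces, were higher in the pair labelled TRAF6 null than in either wild-type group. Col3a1 had signals of 261 and 269.8 in the pair labelled TRAF6 null, 177 and 194 in irradiated wild type and 179 in unirradiated wild type. It was 2.42-fold higher in the pair labelled TRAF6 null than in irradiated wild type (log2 difference 1.27 ± 0.20 SE, adjusted p = 0.00882) and 2.16-fold higher than in unirradiated wild type (log2 difference 1.11 ± 0.24 SE, adjusted p = 0.0304). Irradiated and unirradiated wild type overlapped (log2 difference -0.17 ± 0.24 SE, adjusted p = 0.618). Col14a1 was above background in the pair labelled TRAF6 null alone, with 163 and 162 there, 126 and 129.6 in irradiated wild type and 118 in unirradiated wild type. It was at least 2.11-fold and 1.8-fold higher (adjusted p = 0.00788 and 0.0144). With the authors' matrix and with neqc's own background (log2 difference 0.095) the call against irradiated wild type was lost. Col5a1, which starts collagen fibrils and limits their width, read 776 and 635 in the pair labelled TRAF6 null, 978 and 829 in irradiated wild type and 324 in unirradiated wild type. It was 2.89-fold (log2 difference 1.53 ± 0.25 SE, adjusted p = 0.0165) and 3.36-fold higher (log2 difference 1.747 ± 0.25 SE, adjusted p = 0.0106) in the irradiated groups than in unirradiated wild type. With neqc's own background neither of these passed (adjusted p = 0.0984 and 0.0571). The irradiated groups overlapped (log2 difference -0.21 ± 0.20 SE, adjusted p = 0.428).

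Col6a1, a chain of the beaded filaments of collagen VI, had signals of 964 and 1824 in the pair labelled TRAF6 null, 879.6 and 968 in irradiated wild type and 329 in unirradiated wild type. It was detected in the pair labelled TRAF6 null alone, which brought it into the test, and was 5.47-fold higher there than in unirradiated wild type (log2 difference 2.45 ± 0.38 SE, adjusted p = 0.0152). It was 3.34-fold higher in irradiated than in unirradiated wild type (log2 difference 1.74 ± 0.38 SE, adjusted p = 0.0261). Both calls were lost with neqc's own background (adjusted p = 0.098 and 0.187), the second also with no detection filter (adjusted p = 0.0651). Between the irradiated groups Col6a1 did not pass (log2 difference 0.71 ± 0.31 SE, adjusted p = 0.125), and 1 array labelled TRAF6 null was near the irradiated wild-type arrays. Its neighbour Col6a2 passed in no comparison, with differences of 1.08, 0.57 and 1.65 for TRAF6 null against irradiated wild type, irradiated against unirradiated wild type, and TRAF6 null against unirradiated wild type. Col23a1, a membrane-spanning collagen, was lower in the pair labelled TRAF6 null than in both wild-type groups (adjusted p = 0.00882 and 0.0146), with signals of 104 and 110.2 there, 144 and 141 in irradiated wild type and 142 in unirradiated wild type, too near background for a fold against irradiated wild type. Col20a1 was 2.06-fold higher in irradiated than in unirradiated wild type (adjusted p = 0.0257). Col2a1, Col8a1, Col11a2, Col16a1 and Col27a1 passed in no comparison, and of these Col2a1, Col8a1 and Col11a2 were above background on no array.

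Sparc, a collagen-binding glycoprotein of remodelling tissue, had signals of 681 and 1008 in the pair labelled TRAF6 null, 812 and 728 in irradiated wild type and 289 in unirradiated wild type. All irradiated arrays stood above the unirradiated one, with a 4-fold higher signal in the pair labelled TRAF6 null (log2 difference 2.001 ± 0.26 SE, adjusted p = 0.0115) and a 3.23-fold higher signal in irradiated wild type (log2 difference 1.69 ± 0.26 SE, adjusted p = 0.0121). With neqc's own background neither of these passed (adjusted p = 0.0795 and 0.109). Between the irradiated groups the difference of 0.31 ± 0.21 SE did not pass, and it was -0.01, of the opposite sign, when computed from the authors' processed matrix. Eln, elastin, read 208 and 202 in the pair labelled TRAF6 null, 408 and 321 in irradiated wild type and 143 in unirradiated wild type. It was 1.79-fold lower in the pair labelled TRAF6 null than in irradiated wild type (log2 difference -0.84 ± 0.19 SE, adjusted p = 0.0238). It was 4.17-fold higher in irradiated than in unirradiated wild type (log2 difference 2.06 ± 0.24 SE, adjusted p = 0.00805). Fbln2, a fibulin that binds elastic fibres and basement membranes, had 301 and 221 in the pair labelled TRAF6 null, 392 and 333 in irradiated wild type and 372 in unirradiated wild type and passed in no comparison. Fbln1 passed only for TRAF6 null against unirradiated wild type, at 1.97-fold higher (adjusted p = 0.0437). Fn1, fibronectin, was not tested, with 227 and 247 in the pair labelled TRAF6 null, 230.4 and 215 in irradiated wild type and 113 in unirradiated wild type, where it was not above background.

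Markers of fibroblasts and fat cells were measured beside Dcn, Lum and Col3a1. Of 13 tested fibroblast marker rows, 7 were higher and 1 lower in the pair labelled TRAF6 null than in irradiated wild type. Dpt and Mfap5, both among the 7, are counted again below with other basement membrane and matrix genes. Over all tested rows 20.8% were higher and 22.8% lower. Fibroblast sums cover the 14 marker rows above background on at least 1 array. They were 7800 and 12165 in the pair labelled TRAF6 null, 12024 and 10107 in irradiated wild type and 4849 in unirradiated wild type. One marker, Pdpn, made up a large part of these sums, with 1890.3 and 4656 in the pair labelled TRAF6 null, 7047 and 5596 in irradiated wild type and 1304 in unirradiated wild type. Without Pdpn, a choice made after seeing the data, the sums were 5909 and 7509 in the pair labelled TRAF6 null, 4976 and 4511 in irradiated wild type and 3545 in unirradiated wild type, so that the irradiated groups overlapped only with it. Of 10 adipocyte marker genes, 4 were detected and tested. All 4 were higher in the pair labelled TRAF6 null than in irradiated wild type, beside 20.8% of all tested rows. Fabp4, Plin1, Lipe, Lep, Retn and Pck1 were above background on no array. The 4 rows summed to 7018 and 10584 in the pair labelled TRAF6 null, 3308 and 3472 in irradiated wild type and 2184 in unirradiated wild type. The part of these cells in the proteoglycan and collagen signals was not tested.

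A further 5 genes that bear a matching name had signals above background but averaged detection p-values that missed the threshold, and are not among the 52: Fbn1, Col1a1, Col12a1, Mmp24 and Col6a3. Of the 52, 23 were detected on all 5 arrays. Lamc3, Mmp17, Mmp10, Col7a1 and Col9a2 were detected on 1 array each, with signals of at most 171, and were not tested. Within the pair labelled TRAF6 null, 5 of the 44 tested genes differed by over 1 on the log2 scale, or 11.4%, against 4.98% of all tested rows. They were Lama3, Mmp3, Timp4, Timp1 and Col16a1, chosen here after their values were seen. Within the irradiated wild-type pair 1 gene, Mmp9, did so, or 2.27%, against 1.38% of all rows.

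Genes that make, hold or sense the same matrix were listed apart from the 52. Over all tested rows 20.8% were higher and 22.8% lower in the pair labelled TRAF6 null than in irradiated wild type. Between irradiated and unirradiated wild type the shares were 18.7% and 17.5%. Of 19 tested genes of collagen synthesis and cross-linking, 2 were higher and 6 lower in the first comparison. In the second 12 were higher and 0 lower (13 and 1 at an unadjusted p under 0.05). Serpinh1, the collagen chaperone, had signals of 629 and 616 in the pair labelled TRAF6 null, 1948 and 1856 in irradiated wild type and 733 in unirradiated wild type (log2 difference -1.65 ± 0.15 SE, adjusted p = 0.00368 between the irradiated groups). P4ha2, a subunit of prolyl hydroxylase, and Colgalt1, which adds galactose to collagen, gave log2 difference -1.66 ± 0.17 SE, adjusted p = 0.00416 and log2 difference -1.85 ± 0.21 SE, adjusted p = 0.00509. Of 16 tested matrix receptor rows, 11 were lower and 0 higher (by limma and at an unadjusted p under 0.05) in the pair labelled TRAF6 null than in irradiated wild type, and 12 were higher and 0 lower in irradiated than in unirradiated wild type. Itga3, an integrin chain that binds the laminin of Lama3 and Lamb3, read 287 and 416 in the pair labelled TRAF6 null, 1167 and 1240.1 in irradiated wild type and 185 in unirradiated wild type (log2 difference -1.89 ± 0.24 SE, adjusted p = 0.00593 between the irradiated groups).

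Of 23 tested rows of other basement membrane and matrix genes, 8 were higher and 4 lower in the pair labelled TRAF6 null against irradiated wild type. Over all tested rows 20.8% were higher and 22.8% lower. Hspg2 and Agrn, the heparan sulfate proteoglycans perlecan and agrin of basement membranes, were lower (log2 difference -2.15 ± 0.25 SE, adjusted p = 0.00515 and log2 difference -1.98 ± 0.17 SE, adjusted p = 0.00324), whereas Nid1, nidogen, which links laminin to collagen IV, was higher (log2 difference 1.13 ± 0.16 SE, adjusted p = 0.00766). Among other matrix proteases and inhibitors 3 of 10 were higher and 3 lower, beside 20.8% and 22.8% of all tested rows. Adamts4, an aggrecanase, gave log2 difference -3.17 ± 0.19 SE, adjusted p = 0.00243 and Plau, urokinase, log2 difference -1.88 ± 0.47 SE, adjusted p = 0.0304, while Ctsk, the collagen-cutting cathepsin K, gave log2 difference 1.68 ± 0.28 SE, adjusted p = 0.0105. Of 15 tested rows of the TGF-beta pathway, a main inducer of matrix genes, 2 were higher and 6 lower between the irradiated groups. In irradiated against unirradiated wild type 9 were higher and 0 lower (9 and 0 at an unadjusted p under 0.05). Those shares over all tested rows were 20.8% and 22.8%, and 18.7% and 17.5%. Tgfb1 read 180.4 and 169 in the pair labelled TRAF6 null, 429 and 475 in irradiated wild type and 156 in unirradiated wild type (log2 difference -1.69 ± 0.21 SE, adjusted p = 0.00594 between the irradiated groups). Ccn2, which TGF-beta induces, read 2590.5 and 4972 in the pair labelled TRAF6 null, 3475 and 2266 in irradiated wild type and 185 in unirradiated wild type, high on all irradiated arrays (log2 difference 0.22 ± 0.36 SE, adjusted p = 0.634 between the irradiated groups). The genes named here were picked from these lists after their values were seen.

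In H1299 cells, with 1 array per transfection, no test was possible, and a 2-fold difference was used as a rule of size. Of 23 genes detected, 0 differed 2-fold between p53 K24R and vector, against 2.06% of 12602 detected genes, 1 between p53 WT and vector, against 5.10%, and 0 between p53 K24R and p53 WT, against 2.86%. The median log2 differences of the 23 genes were 0.04 for p53 K24R against vector, 0.38 for p53 WT against vector and -0.28 for p53 K24R against p53 WT, while over all detected genes they were -0.01, -0.01 and 0.02. In p53 WT against vector 19 of the 23 differences were positive and 7 exceeded 1.5-fold, or 30.4%, against 20.7% of all detected genes. In p53 K24R against vector 13 were positive and 2 exceeded 1.5-fold, or 8.7%, against 12.7%. In p53 K24R against p53 WT 17 were negative and 5 exceeded 1.5-fold, or 21.7%, against 18.1%.

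FBLN2, fibulin 2, was the gene past 2-fold. Its probe of higher signal read 192 with p53 K24R, 192 with p53 WT and 145 with vector with standard errors over beads of 9.3, 11.7 and 5.14. It was 2.04-fold higher with p53 WT and 1.9-fold higher with p53 K24R than with vector, and the gene's other probe gave 2.1-fold and 2.44-fold, with the vector array not detected. LAMB3 read 692 with p53 K24R, 1033 with p53 WT and 646 with vector. LAMA5 read 1079 with p53 K24R, 1516 with p53 WT and 1122 with vector. They were 1.73-fold and 1.37-fold higher with p53 WT than with vector and 1.12 and 0.994 times the vector signal with p53 K24R. LAMC1 read 1342 with p53 K24R, 1246 with p53 WT and 1052 with vector. TIMP1 read 6268 with p53 K24R, 6461 with p53 WT and 6708 with vector, with 0.96 and 0.939 times the vector signal for p53 K24R and p53 WT. TIMP2 read 1504 with p53 K24R, 1876 with p53 WT and 1603 with vector, or 0.965 and 1.15 times. The metalloproteinase among the 23 genes was MMP23B, at 143 with p53 K24R, 176 with p53 WT and 139.9 with vector.

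**Figure D4:**
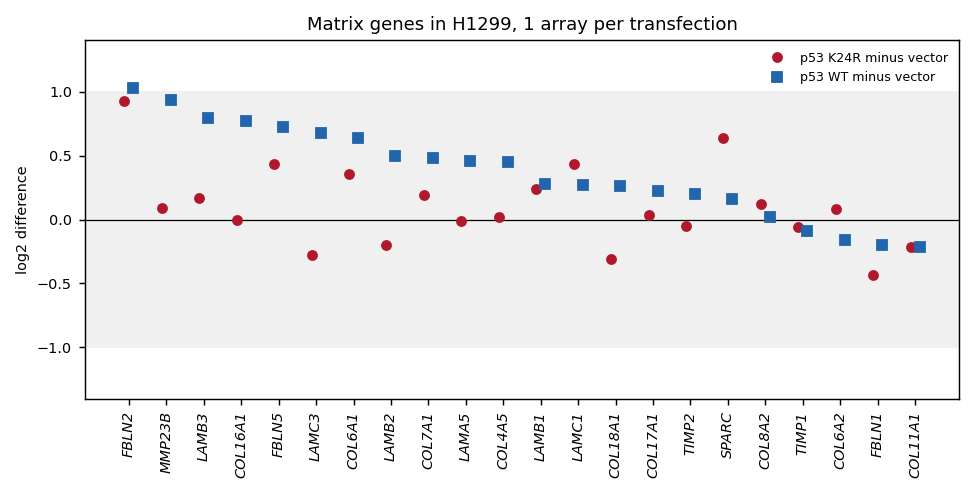
Log2 differences (y axis) from the vector array for 22 matrix genes in H1299 cells with p53 K24R (red circles) and p53 WT (blue squares), 1 array each, ordered by the p53 WT difference; the shaded band marks differences under 2-fold. FBLN2 with p53 WT, at 1.03, is the 1 point outside the band.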

How the data were processed

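Thymus RNA (5 mouse arrays) and H1299 RNA (3 human arrays) were measured on Illumina bead arrays. Per the file headers, the deposited tables give each row's mean bead intensity, its bead standard error, the count of beads and a detection p-value. The dimmest rows lie near the negative controls, so no background had been subtracted. The mouse table holds 1 row per gene symbol, and its deposited detection p-values are averages over a gene's probes. The scanner software and its version are not given in the sources used here. Groups were taken from the sample labels.

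For the mouse arrays, the level and spread of negative control beads were estimated from the detection p-values, and intensities were background-corrected (normexp, offset 16), quantile-normalised, and compared on the log2 scale with limma 3.58.1 in R 4.3.3 (lmFit and eBayes on all 5 arrays, 2 residual and 2.89 prior degrees of freedom). Benjamini-Hochberg adjustment covered 11563 rows with a detection p-value under 0.01 on at least 2 arrays, and calls were made at an adjusted p under 0.05. The limma fit was tested on simulated log2 values before use. The background estimate and correction were not part of that test. Human arrays were normalised with neqc, with the probe of highest mean signal standing for a gene, and were not tested. Bead counts per row, a median of 41 to 43 per mouse array, set the technical precision.

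Values on every array were given for the 10 called genes of largest difference with groups that do not overlap in each comparison with irradiated wild type, the 5 largest in TRAF6 null against unirradiated wild type, and the gene of highest signal in each role group. Other genes given with values were added after their values were seen. The genes, lists and tests were chosen with earlier results of these data known. Alternatives were other background corrections, offsets, scalings and detection filters, the authors' processed matrix, a replicate block, and leaving out each irradiated array. The unirradiated array was not left out. Old names were matched to current symbols through RefSeq tables. Genes detected on 1 array were not tested. The authors' deposited matrix holds linear intensities that equal the mouse table times 1 constant per array (0.899 to 1.04), with a scaling that is not stated. A matrix gene that is included in the counts is not reported here by name or drawn.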

Additional observations from a re-analysis of the deposited data

How the results depend on the processing

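No called matrix gene changed sign under any alternative in which it was still tested. Where the background was inferred by neqc itself rather than from the detection p-values, limma called 3 higher and 8 lower in TRAF6 null against irradiated wild type (5 and 15 at an unadjusted p under 0.05), 15 higher and 0 lower in irradiated against unirradiated wild type (23 and 0), and 6 higher and 0 lower in TRAF6 null against unirradiated wild type (15 and 0). Detection on all 5 arrays, which tests fewer genes, left 8 lower in TRAF6 null against irradiated wild type and 0 lower in TRAF6 null against unirradiated wild type (0 at an unadjusted p under 0.05). The 1 gene lower in irradiated than in unirradiated wild type, Lum, became 0 without background correction, with an offset of 50, with no detection filter and with the authors' matrix (1, 1, 3 and 0 at an unadjusted p under 0.05). The 2 lower in TRAF6 null against unirradiated wild type became 4 with median scaling and 0 with the authors' matrix (3 at an unadjusted p under 0.05).

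Leaving out 1 array at a time gave 0 to 9 higher and 2 to 20 lower in TRAF6 null against irradiated wild type, 0 to 30 higher and 0 to 1 lower in irradiated against unirradiated wild type, and 4 to 26 higher and 0 to 5 lower in TRAF6 null against unirradiated wild type. The lowest counts came without either irradiated wild-type array, and the cause was not tested. A replicate block gave 7 higher and 17 lower between the irradiated groups, but same-numbered arrays correlated at 0.032 in their deviations, so the numbers were not shown to pair the arrays.

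Of 60 differences of tested matrix genes that had not passed, over the 3 comparisons, 20 had the opposite sign under at least 1 alternative. Col4a5 and Fbln1 in TRAF6 null against irradiated wild type went as low as -0.307 and -0.253. Among the genes named by rule, Sparc in TRAF6 null against irradiated wild type was -0.01 with the authors' matrix, and Fbln2 in irradiated against unirradiated wild type was 0.14. Leaving out single arrays, Fbln2 in TRAF6 null against irradiated wild type ranged from -0.74 to 0.093, and Timp4 in irradiated against unirradiated wild type from -0.184 to 0.349. The median of all tested rows in TRAF6 null against irradiated wild type moved to -0.28 with the authors' matrix and -0.19 with median scaling, beside -0.57 for the matrix genes under the authors' matrix. In H1299 the 2-fold count for p53 WT against vector was 0 without background correction and with the authors' matrix, and that for p53 K24R against vector was 1 with the mean of detected probes. A slide block was not run, since the headers name no slide. Genes near background, and 1 unirradiated array, limit what could be compared.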
